A study of Mus musculus with 9 samples.

Results

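The 9 genes described here carry the breakdown of heme and the handling of the iron it releases. They are the heme-degrading enzymes Hmox1, Blvra and Blvrb, the iron transporters Slc40a1, Slc11a1 and Tfrc, the ferritin subunits Fth1 and Ftl1, and the ferroxidase Cp. They were listed by name from the 19505 genes named on the array, at a time when earlier results of these data were known, and each had 1 transcript cluster (the set of probes read as 1 gene). The tissue was white fat from male mice, and 9 Clariom S arrays were read, 3 per group, each from a separate mouse by the design's group sizes. The fat depot was not given in the sources used here.

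The reference group held wild type C57BL/6JHamSlc-+/+ mice given vehicle. The obese group held C57BL/6JHamSlc-ob/ob mice, which lack functional leptin, also given vehicle. The treated group held ob/ob mice that received Vigna umbellata (rice bean) extract, called VE in the labels, by oral gavage at 100 mg/kg. Dosing ran for 42 days in mice that were 6 weeks old on arrival, and all 3 groups ate standard chow. The ob/ob mutation is present throughout life, so the genotype comparison includes long-standing obesity. No wild type mice given VE were among the samples used here. The series asks how the fat of obese mice differs from that of lean mice and whether VE alters it.

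Hmox1 opens the ring of heme and yields biliverdin, carbon monoxide and ferrous iron, and the biliverdin reductases turn biliverdin into bilirubin. Freed iron is kept in ferritin shells, pumped out of phagosomes by Slc11a1, or exported from the cell by ferroportin, the product of Slc40a1. In fat, tissue macrophages are known to take up and store iron, and they express much of this machinery.

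The start-site sequences of 3 of the genes are shown because these genes were higher in both ob/ob groups and each had a single listed start. They come from RefSeq (GRCm38.p6) and run from 250 bases before the start site to 50 after it, 5′ to 3′ on the strand of the gene. Slc11a1 lies at chr1:74374953-74375252 on the plus strand, Blvra at chr2:127070407-127070706 on the plus strand and Ftl1 at chr7:45459837-45460136 on the minus strand. Capitals mark letters that match a searched motif on either strand: the antioxidant response element core (TGACNNNGC), an AP-1 site (TGANTCA), the PU.1 core (GAGGAA) and the CCAAT box (CCAAT). No 2 matches overlapped.
Slc11a1: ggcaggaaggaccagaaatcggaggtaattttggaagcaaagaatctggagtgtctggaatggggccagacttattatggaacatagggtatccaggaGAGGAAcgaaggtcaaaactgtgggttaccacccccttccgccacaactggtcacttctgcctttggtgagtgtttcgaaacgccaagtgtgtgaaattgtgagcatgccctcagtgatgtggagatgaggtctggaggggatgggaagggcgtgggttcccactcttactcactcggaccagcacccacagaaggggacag
Blvra: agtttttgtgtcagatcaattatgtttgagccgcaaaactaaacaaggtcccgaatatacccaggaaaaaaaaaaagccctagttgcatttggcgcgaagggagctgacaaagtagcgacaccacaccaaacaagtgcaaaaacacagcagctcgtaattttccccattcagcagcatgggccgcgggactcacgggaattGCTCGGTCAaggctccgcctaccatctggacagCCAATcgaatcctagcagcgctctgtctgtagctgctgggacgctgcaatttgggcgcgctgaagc
Ftl1: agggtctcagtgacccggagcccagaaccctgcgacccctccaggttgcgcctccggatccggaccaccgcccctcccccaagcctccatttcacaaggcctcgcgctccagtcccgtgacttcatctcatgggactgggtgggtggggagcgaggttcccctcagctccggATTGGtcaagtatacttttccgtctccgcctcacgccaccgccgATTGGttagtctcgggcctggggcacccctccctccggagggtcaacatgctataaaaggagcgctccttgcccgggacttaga

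The Slc11a1 window held 1 PU.1 core match, which begins 152 bases before the start. The Blvra window held an antioxidant response element core match on the minus strand, 49 bases before the start, and a CCAAT box 16 bases before it. The Ftl1 window held a CCAAT match at 78 and another at 34 bases before the start. Of all 32851 RefSeq windows of the same length, 12.4% held the antioxidant core, 7.81% the AP-1 site, 28.3% the PU.1 core and 37.4% a CCAAT box. Windows were listed for 7 of the 9 genes, 11 windows in all. The antioxidant core, the AP-1 site and the PU.1 core each occurred in 1 of those 11, and the CCAAT box in 5. These are matches of letters, and binding was not measured.

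All arrays had a similar overall level, with medians of 6.11 to 6.26 (log2). The wild type arrays differed more among themselves than the others: correlations over all clusters between arrays of 1 group were 0.933 to 0.956 in wild type, 0.98 to 0.987 in ob/ob vehicle and 0.982 to 0.988 in ob/ob VE. Adipocyte markers such as Adipoq and Plin1 were high on all 9 arrays, with a median of 16.005 to 17.99 over the 10 measured. The wild type arrays also carried epithelial and hepatocyte markers at uneven levels. The median of 12 epithelial markers was 9.32, 10.165 and 7.885 on wild type arrays 1, 2 and 3. It was 4.245 to 4.995 on the ob/ob arrays, low on the log2 scale, and whether this exceeded background was not tested. The 8 hepatocyte markers had a median of 12.72, 7.145 and 15.15 on the same wild type arrays, against 12.28 to 15.38 on the ob/ob arrays. The part of these markers in the results was not tested, and member counts without wild type arrays 1 and 2 stand beside the main counts. That omission removes neither set of markers. Array 3, which it keeps, had the highest hepatocyte median in wild type and an epithelial median above every ob/ob array.

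The 3 listed enzymes of heme breakdown and some of the iron genes were higher in the fat of ob/ob mice given vehicle than in wild type fat. Of the 9 genes, 6 rose, none fell and 3 did not pass the test, which was limma with Benjamini-Hochberg adjustment over 19572 clusters and a call at an adjusted p under 0.05. Among all clusters tested, 9.02% were called higher and 5.05% lower. The genes that rose were the 3 listed enzymes of heme breakdown, the transporters Slc40a1 and Slc11a1, and the ferritin light chain Ftl1. The median log2 difference was 2.38 over the 9 genes and -0.04 over all clusters. The arrays of the groups did not overlap for 6 of the 9 genes, against 28.9% of all clusters. Without wild type arrays 1 and 2, which leaves 1 wild type array assumed to vary like the other groups, 4 of the 9 were called higher and 1, Cp, lower, against 5.94% and 5.32% of all clusters.

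**Figure D1:**
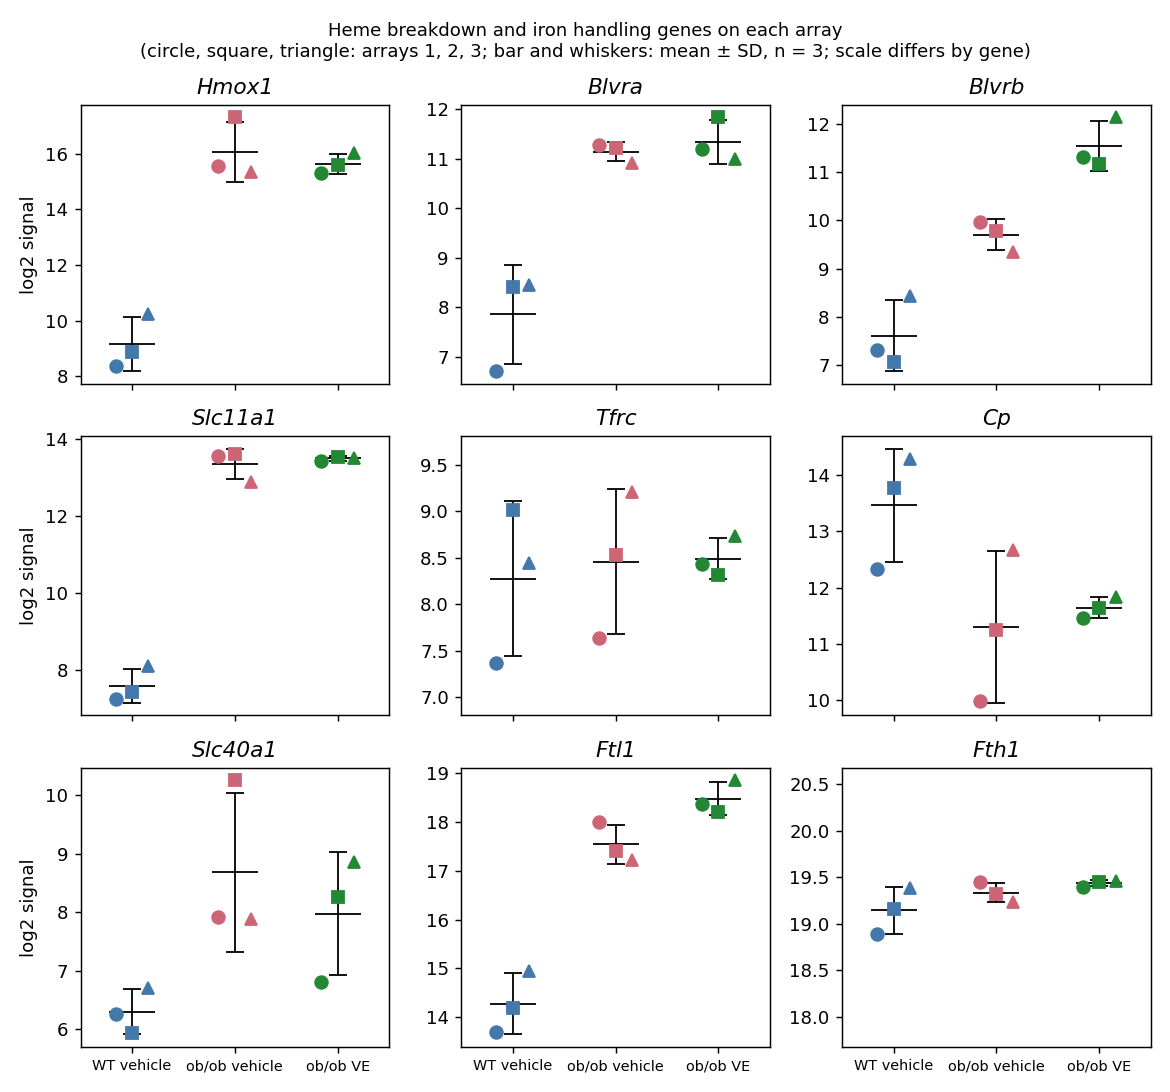
Log2 expression of each of the 9 genes on the 9 arrays, with a panel for each gene. Points are single arrays, bars are group means and error bars are 1 SD over 3 arrays. The wild type points of Hmox1, Slc11a1 and Ftl1 lie below all ob/ob points, and the 3 groups of Tfrc overlap.

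The VE comparison within ob/ob mice gave no called gene among the 9. In limma, 0 of 9 passed between VE and vehicle, where 0.0255% of all clusters were called higher and none lower. The study's own threshold was taken here as a fold over 1.1 and an unadjusted limma p under 0.05. Its further filters (DABG and AUC) could not be applied to the deposited values. At this threshold 2 of the 9 were higher with VE, Blvrb and Ftl1, against 4.56% of all clusters in either direction. These were also the genes whose arrays did not overlap between VE and vehicle, 2 of 9 against 12.6% of all clusters. Of the 9, 7 differences were above 0, with a median of 0.15 over the 9 genes and -0.02 over all clusters.

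Against wild type, ob/ob mice given VE had 5 of the 9 genes higher and none lower, where 12.4% of all clusters were called higher and 7.58% lower. These were Hmox1, Blvra, Blvrb, Slc11a1 and Ftl1. The arrays did not overlap for 8 of the 9 genes, all but Tfrc, against 37.2% of all clusters. Without wild type arrays 1 and 2, 5 were again called higher, against 7.62% of all clusters, and none lower, against 6.55%. The median log2 difference was 3.48 over the 9 genes and -0.07 over all clusters. This comparison shares its wild type arrays with the vehicle comparison and its VE arrays with the treatment comparison, so the 3 sets of values are given side by side and are not independent.

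**Figure D2:**
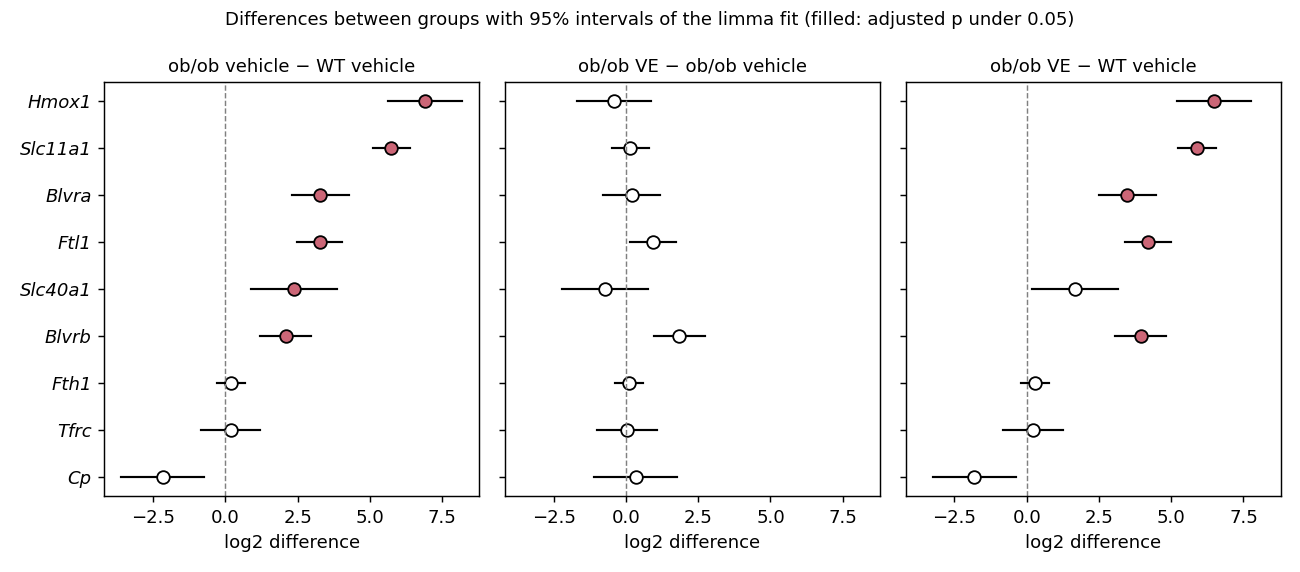
Log2 differences of the 9 genes in the 3 comparisons, as points with 95% confidence intervals from limma; the scale is the log2 difference between group means. Intervals of Hmox1, Blvra, Blvrb, Slc11a1 and Ftl1 lie above 0 in both comparisons with wild type, and the VE against vehicle points lie between -0.71 and 1.84.

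Hmox1, the inducible heme oxygenase and the first enzyme of heme breakdown, had the largest difference of the 9. Its log2 level was 8.36, 8.86 and 10.24 in wild type, 15.56, 17.30 and 15.32 in ob/ob vehicle, and 15.31, 15.59 and 16.02 in ob/ob VE. Every ob/ob array was above every wild type array, and the VE values lay within the range of the vehicle values apart from 1 that was just under it. The ob/ob vehicle mean of 16.06 ± 1.08 (SD, n = 3) exceeded the wild type mean of 9.15 ± 0.974 by 6.91 ± 0.58 (SE), which is 120.0-fold (limma adjusted p = 6.04e-05). Under VE the mean was 15.64 ± 0.358, a log2 difference from vehicle of -0.42 with a 95% interval of -1.71 to 0.87 (limma adjusted p = 1). VE against wild type gave 6.49, or 89.7-fold (limma adjusted p = 7.92e-05). The interval against vehicle leaves room for a fall of more than 1 log2 unit and for a rise of less than 1.

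Both biliverdin reductases also rose. Blvra, the main reductase of the adult biliverdin isomer, read 6.71, 8.41 and 8.45 in wild type, 11.27, 11.22 and 10.92 in ob/ob vehicle and 11.19, 11.83 and 10.99 in ob/ob VE. All ob/ob arrays were above all wild type arrays, wild type array 1 was low, and the ob/ob groups overlapped. The difference between vehicle groups was 3.28 ± 0.44 (SE), or 9.71-fold (limma adjusted p = 0.000997). VE differed from vehicle by 0.20, with a 95% interval of -0.79 to 1.19, and from wild type by 3.48, or 11.2-fold (limma adjusted p = 0.000617).

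Blvrb, which reduces other biliverdin isomers and flavins, read 7.31, 7.06 and 8.44 in wild type, 9.97, 9.79 and 9.34 in ob/ob vehicle and 11.32, 11.17 and 12.14 in ob/ob VE. The groups stood in 3 separate ranges, with VE the highest and wild type the lowest. The group means were 7.60 ± 0.735, 9.70 ± 0.325 and 11.54 ± 0.522 (SD, n = 3 each). Vehicle-treated ob/ob mice exceeded wild type by 2.10 ± 0.40 (SE), or 4.28-fold (limma adjusted p = 0.00651). That call was lost without wild type arrays 1 and 2, where the difference was 1.26 (limma adjusted p = 0.0967). VE exceeded vehicle by 1.84 ± 0.40, or 3.59-fold, with a 95% interval of 0.96 to 2.73. The unadjusted limma p of that difference was 0.000912 and the adjusted p 0.359, so it did not pass the test, and the adjusted p ran from 0.0535 to 1 over the 22 alternatives. VE exceeded wild type by 3.94, or 15.3-fold (limma adjusted p = 0.000168).

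Slc11a1, also called Nramp1, moves iron out of the phagosomes of macrophages and was close to uniform over the ob/ob VE arrays. It read 7.26, 7.44 and 8.10 in wild type, 13.55, 13.60 and 12.89 in ob/ob vehicle, and 13.43, 13.54 and 13.51 in ob/ob VE. The wild type arrays lay more than 4 log2 units under the lowest ob/ob array, and the ob/ob groups overlapped. The vehicle groups differed by 5.75 ± 0.29 (SE), or 53.7-fold (limma adjusted p = 4.89e-06). VE differed from vehicle by 0.15, with a 95% interval of -0.49 to 0.79, and from wild type by 5.89, or 59.4-fold (limma adjusted p = 4.93e-06).

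Slc40a1, the gene of ferroportin, the iron exporter of cells, rose by a call that depended on single arrays. It read 6.26, 5.94 and 6.70 in wild type, 7.91, 10.25 and 7.89 in ob/ob vehicle, and 6.81, 8.26 and 8.85 in ob/ob VE. The ob/ob vehicle arrays were above wild type, array 2 of that group was more than 2 log2 units above the other two, and the ob/ob groups overlapped. The vehicle groups differed by 2.38 ± 0.67 (SE), or 5.22-fold (limma adjusted p = 0.0398). The call was lost without wild type array 1 (2.36, limma adjusted p = 0.0891), without wild type array 2 (2.20, 0.0928), without ob/ob vehicle array 2 (1.60, 0.113) and without ob/ob VE array 2 (2.38, 0.0633). It was also lost when both wild type arrays 1 and 2 were left out (1.98, limma adjusted p = 0.240). VE differed from vehicle by -0.71, with a 95% interval of -2.20 to 0.78. VE differed from wild type by 1.67 with no overlap of the arrays and did not pass (limma adjusted p = 0.107), although it passed without ob/ob vehicle array 2 (limma adjusted p = 0.0437).

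Tfrc encodes the receptor that brings transferrin-bound iron into cells. It read 7.37, 9.01 and 8.44 in wild type, 7.64, 8.53 and 9.20 in ob/ob vehicle and 8.43, 8.31 and 8.73 in ob/ob VE. The 3 groups overlapped, and no comparison passed the test. The vehicle groups differed by 0.18, with a 95% interval of -0.85 to 1.22 (limma adjusted p = 0.844), and VE differed from vehicle by 0.03 ± 0.46 (SE).

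Of the ferritin subunits, Ftl1 rose and Fth1 did not pass the test. Ftl1, the light chain that helps to mineralise stored iron, read 13.70, 14.19 and 14.94 in wild type, 17.99, 17.41 and 17.22 in ob/ob vehicle, and 18.36, 18.20 and 18.85 in ob/ob VE. As with Blvrb, the groups stood in 3 separate ranges with VE the highest. The vehicle groups differed by 3.26 ± 0.35 (SE), or 9.60-fold (limma adjusted p = 0.000273). VE exceeded vehicle by 0.93 ± 0.35, or 1.91-fold, with a 95% interval of 0.15 to 1.71, which did not pass (limma unadjusted p = 0.0246, adjusted p = 0.983). VE exceeded wild type by 4.19, or 18.3-fold (limma adjusted p = 5.58e-05).

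Fth1, the heavy chain with the ferroxidase centre, read 18.89, 19.16 and 19.39 in wild type, 19.45, 19.32 and 19.24 in ob/ob vehicle, and 19.40, 19.45 and 19.46 in ob/ob VE. The vehicle groups overlapped, and the VE arrays were above the wild type arrays by a narrow margin. The vehicle groups differed by 0.19, with a 95% interval of -0.28 to 0.66 (limma adjusted p = 0.622), and VE differed from vehicle by 0.10, with an interval of -0.37 to 0.57. Each Fth1 value lay 0.03 to 0.6 under the brightest cluster of its array, near the top of the scale, and the part of this in its small differences was not tested. Mouse ferritin genes have processed pseudogenes, and whether probes are shared with them was not checked, which makes both ferritin values uncertain in that respect.

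Cp encodes ceruloplasmin, a copper enzyme that oxidises exported iron so that transferrin can bind it. It was the single gene of the 9 with a lower mean in both ob/ob groups. It read 12.34, 13.77 and 14.28 in wild type, 9.98, 11.25 and 12.67 in ob/ob vehicle, and 11.46, 11.64 and 11.83 in ob/ob VE. The vehicle groups overlapped at ob/ob array 3 and wild type array 1, and all VE arrays were below wild type. The difference between vehicle groups was -2.16 ± 0.64 (SE), with a 95% interval of -3.60 to -0.73, and just missed the threshold (limma adjusted p = 0.0511). It passed without wild type array 1 (-2.72, limma adjusted p = 0.0240), without ob/ob vehicle array 3 (-2.85, 0.0155) and without wild type arrays 1 and 2 (-2.98, 0.0361). VE differed from vehicle by 0.34, with an interval of -1.09 to 1.78, and from wild type by -1.82 (limma adjusted p = 0.0742). Cp is also made by liver. Of the 8 hepatocyte markers, whose range over the wild type arrays is given above, 0 were called. Their median log2 difference was 1.32 in ob/ob vehicle against wild type, where Cp was lower. Their SD within wild type was 2.85 to 4.42, so large differences could go uncalled, as that of Apoa2 (3.14) did. Wild type array 3 was the highest in both Cp and the hepatocyte median, and array 2 was the lowest in the latter only. Epithelial markers were lower in the same groups as Cp: 11 of 12 fell in ob/ob vehicle against wild type, with a median log2 difference of -4.08. The log2 of their summed linear level was 13.27 to 16.07 in wild type, 8.84 to 8.94 in ob/ob vehicle and 8.42 to 9.43 in ob/ob VE. Within wild type the match did not hold: the epithelial median was lowest on array 3 (7.885), where Cp was highest. The part of either list in the Cp values was not tested.

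Markers of macrophages were higher in the same arrays as Hmox1 and Slc11a1. Of 12 measured macrophage markers, 11 rose in ob/ob vehicle against wild type by the limma test, with a median log2 difference of 4.65, and none passed between VE and vehicle. Their median was 7.17, 7.485 and 8.145 on the wild type arrays, 12.365 to 13.215 in ob/ob vehicle and 11.655 to 12.525 in ob/ob VE. The log2 of their summed linear level was 12.71 to 15.18 in wild type, 18.48 to 19.34 in ob/ob vehicle and 18.65 to 18.89 in ob/ob VE. The lowest macrophage markers in wild type were Itgax at 3.49 to 4.68 and Trem2 at 3.56 to 4.52. These were low on this scale, where a mean of 4.23 (Gata1) stood at percentile 21.6 of the clusters tested. Whether they exceeded background was not tested. In RNA from whole tissue, more cells of a type and more RNA per cell cannot be told apart, and the part of macrophage number in the 6 genes that rose was not tested. Erythroid markers, which would follow residual blood, had medians of 4.13 to 5.04 on all 9 arrays with 0 of 5 called. Neutrophil markers, with 0 of 7 called, had medians of 4.48 to 5.08, and endothelial markers, with 0 of 7 called, had medians of 8.55 to 10.

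**Figure D3:**
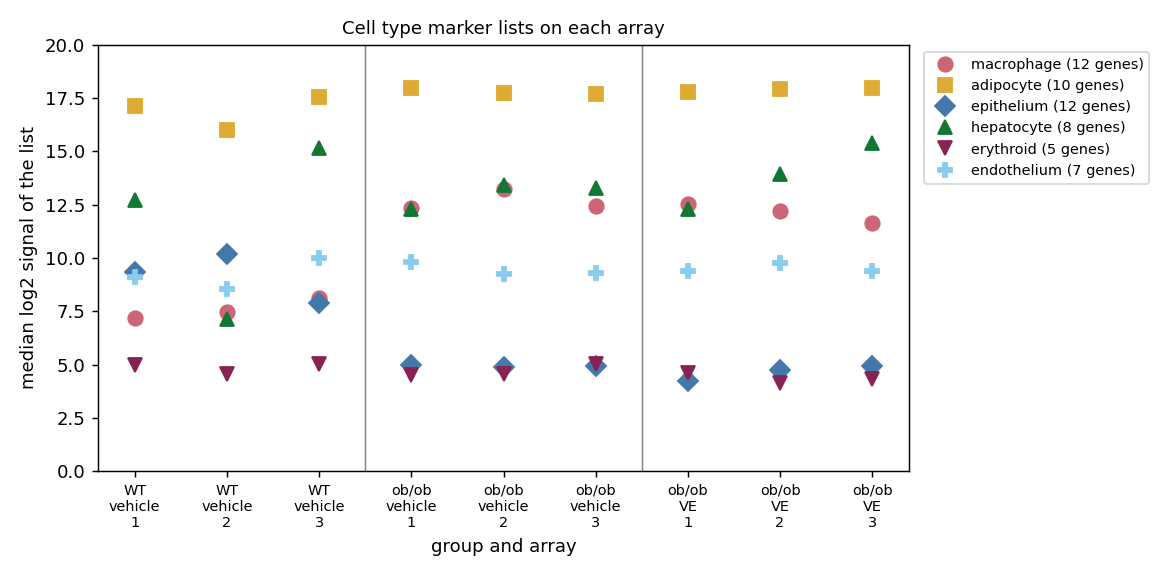
Median log2 level of 6 cell type marker lists on every array, with arrays along the horizontal axis by group and a symbol for each list. Macrophage medians are 7.17 to 8.145 in wild type and above 11 in all ob/ob arrays, epithelial medians run the other way, and hepatocyte medians are spread from 7.145 to 15.15 within wild type.

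A wider list of 59 genes of heme and iron metabolism, of which 56 were measured, covered synthesis, transport, storage and sensing. In ob/ob vehicle against wild type, 10 of the 56 rose, 3 fell and 43 did not pass, with a median log2 difference of 0.52. The shares of all clusters were 9.02% higher and 5.05% lower, so the 3 that fell were near the share over all clusters. Without wild type arrays 1 and 2 the counts were 5 higher and 5 lower, against 5.94% and 5.32% of all clusters, and the calls of Ncoa4, Hephl1, Hfe, Fbxl5, Nfs1 and Iscu were lost. Of the 13 genes called, 7 passed in every fit that left out 1 array. At the study's own threshold 29 of the 56 were called, against 28.4% of all clusters. The count of 13 called ran from 8 without ob/ob vehicle array 3 to 21 without wild type array 3.

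Of 8 measured genes of heme synthesis, 2 fell and none rose, where 5.05% of all clusters were called lower and 9.02% higher. Alad, which joins aminolevulinate into porphobilinogen, read 9.95, 11.42 and 11.40 in wild type and 8.30 to 8.72 in ob/ob vehicle, a log2 difference of -2.47 ± 0.37 (SE; limma adjusted p = 0.00192). Ppox, which forms protoporphyrin, fell by 1.17 ± 0.31 (limma adjusted p = 0.0319). The Ppox call was lost without wild type array 1 or 3, ob/ob vehicle array 1 or 3, or VE array 3 (-1.26 to -0.905, limma adjusted p 0.0513 to 0.102), in the fit of the 2 groups alone (0.0764) and with array weights (0.0783). Alas1, the housekeeping enzyme that starts heme synthesis, differed by 1.24 without passing in ob/ob vehicle and by 2.49 with VE against wild type (limma adjusted p = 0.00647). Its arrays read 11.99, 11.95 and 13.65 in wild type, 14.31, 13.50 and 13.49 in ob/ob vehicle and 14.52, 14.85 and 15.70 in ob/ob VE, so the VE arrays were the highest.

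Among 10 genes of heme and hemoglobin uptake and transport, 1 rose, which is near the 9.02% of all clusters called higher. Slc48a1, which carries heme out of lysosomes, read 10.78, 11.51 and 11.84 in wild type, 14.50, 15.28 and 14.36 in ob/ob vehicle and 14.57, 15.45 and 15.15 in ob/ob VE. The ob/ob groups overlapped and both lay above wild type. The vehicle groups differed by 3.34 ± 0.37 (SE; limma adjusted p = 0.000288). The constitutive oxygenase Hmox2, a heme oxygenase like Hmox1 but outside the 9 genes, differed by 0.74 without passing (limma adjusted p = 0.101). The heme exporter Abcg2 showed how far wild type arrays could differ: it read 19.17, 18.38 and 10.96 there, and its difference of -5.59 did not pass (limma adjusted p = 0.0511).

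Among 11 genes of iron uptake, reduction and carriage, Steap3 and Tfr2 rose. Of all clusters, 9.02% were called higher, which applies to both classes given here. Steap3, a reductase of endosomal iron, differed by 2.41 ± 0.38 (limma adjusted p = 0.00258), and Tfr2, a transferrin receptor that senses iron, by 1.79 ± 0.44 (0.0229). The Tfr2 call was lost without any 1 of the ob/ob vehicle arrays (1.70 to 1.84, limma adjusted p 0.0592 to 0.0855) and in the fit of the 2 groups alone (0.0645). Among 6 genes of storage and export, Ncoa4, the receptor that takes ferritin to the lysosome, rose by 1.14 ± 0.24 (limma adjusted p = 0.0103). Hephl1, a ferroxidase related to hephaestin, rose by 1.99 ± 0.52 (0.0302). The Hephl1 call was lost without wild type array 1 or 2, any 1 of the ob/ob vehicle arrays, or VE array 2 (1.93 to 2.14, limma adjusted p 0.0501 to 0.0984), and with array weights (0.0625).

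Of 9 genes of iron sensing and the hepcidin axis, Hfe and Fbxl5 rose and Aco1 fell. The shares of all clusters were 9.02% higher and 5.05% lower. Hfe, a partner of the transferrin receptors, differed by 2.01 ± 0.44 (limma adjusted p = 0.0133), and Fbxl5, which targets iron regulatory protein for degradation, by 1.47 ± 0.34 (0.0169). The Fbxl5 call was lost without wild type array 1 or ob/ob vehicle array 2 or 3 (1.18 to 1.45, limma adjusted p 0.0524 to 0.0633), and that of Hfe without ob/ob vehicle array 3 (1.91, 0.0511). Aco1, the cytosolic aconitase that doubles as iron regulatory protein, read 14.31, 13.50 and 13.81 in wild type, 11.67, 11.95 and 12.20 in ob/ob vehicle and 12.19, 12.08 and 12.23 in ob/ob VE. Both ob/ob groups lay below wild type without overlap, and the difference between vehicle groups was -1.93 ± 0.26 (limma adjusted p = 0.000971). The messenger of the other iron regulatory protein, Ireb2, differed by -0.40 without passing (limma adjusted p = 0.451).

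None of the 6 regulators listed passed. Nfe2l2, the transcription factor that acts on antioxidant response elements, differed by 0.52 ± 0.34 (limma adjusted p = 0.368), and Bach1, the heme-sensing repressor of Hmox1, by 0.92 ± 0.32 (0.0852). Messenger levels say nothing of the activity of either protein. Among 6 measured genes of mitochondrial iron and iron-sulfur assembly, 3 rose, where 9.02% of all clusters were called higher. The scaffold gene Iscu rose by 2.20 ± 0.50 (limma adjusted p = 0.0158). The mitochondrial iron importer Slc25a37 rose by 1.45 ± 0.28 (0.00724) and the sulfur donor Nfs1 by 1.08 ± 0.22 (0.00936). The Iscu call was lost without wild type array 1 (1.87, limma adjusted p = 0.0516) and in the fit of the 2 groups alone (0.0521).

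Between VE and vehicle in ob/ob mice, none of the 56 passed. At the study's own threshold 4 were called, against 4.56% of all clusters in either direction. All 4 had an unadjusted limma p under 0.05 and were higher with VE: Glrx5, Nfs1, Alas1 and Keap1. Glrx5, which hands on iron-sulfur clusters, read 11.54, 10.46 and 10.73 with vehicle and 12.26, 11.89 and 11.88 with VE, a difference of 1.10 ± 0.33 (limma unadjusted p = 0.00733, adjusted p = 0.748). The lowest moderated t belonged to the iron importer Slc11a2, at -0.61 ± 0.31, and Hephl1, at -0.54 ± 0.52. The median over the 56 was 0.10.

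In VE against wild type, 13 of the 56 rose, 3 fell and 40 did not pass, and the median was 0.52. The shares of all clusters were 12.4% higher and 7.58% lower, so the 3 that fell were not above the share over all clusters. At the study's own threshold 31 of the 56 were called, against 33.9% of all clusters. Slc48a1 (3.68, limma adjusted p = 0.000156) and Nfs1 (1.69, 0.000708) had the highest moderated t. Iscu, Alas1, Steap3, Tfr2, Glrx5, Hfe, Fbxl5, Slc25a37, Ncoa4, Hmox2 and Fech also rose, by 0.97 to 2.83. Alad (-2.22), Aco1 (-1.71) and Steap2 (-1.38) fell. The Steap2 call was lost in 6 of the 9 fits that left out 1 array, those without wild type array 2 or 3, ob/ob vehicle array 2 or any 1 of the VE arrays (-1.51 to -1.06, limma adjusted p 0.0610 to 0.14), in the fit of the 2 groups alone (0.0603) and after median centring (0.0523). The Fech call was lost without wild type array 1 or 3 or VE array 1 or 2 (0.782 to 1.00, limma adjusted p 0.0516 to 0.1), and the Hmox2 call without VE array 1 (0.923, 0.0788). After quantile normalization the calls of Fech, Hmox2 and Ncoa4 were lost. Without wild type arrays 1 and 2 the calls of Alas1, Hmox2, Ncoa4 and Hfe were lost, with differences of 1.37, 1.08, 0.787 and 1.11. Hephl1 and Ppox, called with vehicle, did not pass here, and the difference between these comparisons is the VE against vehicle value, which passed for neither.

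**Figure D4:**
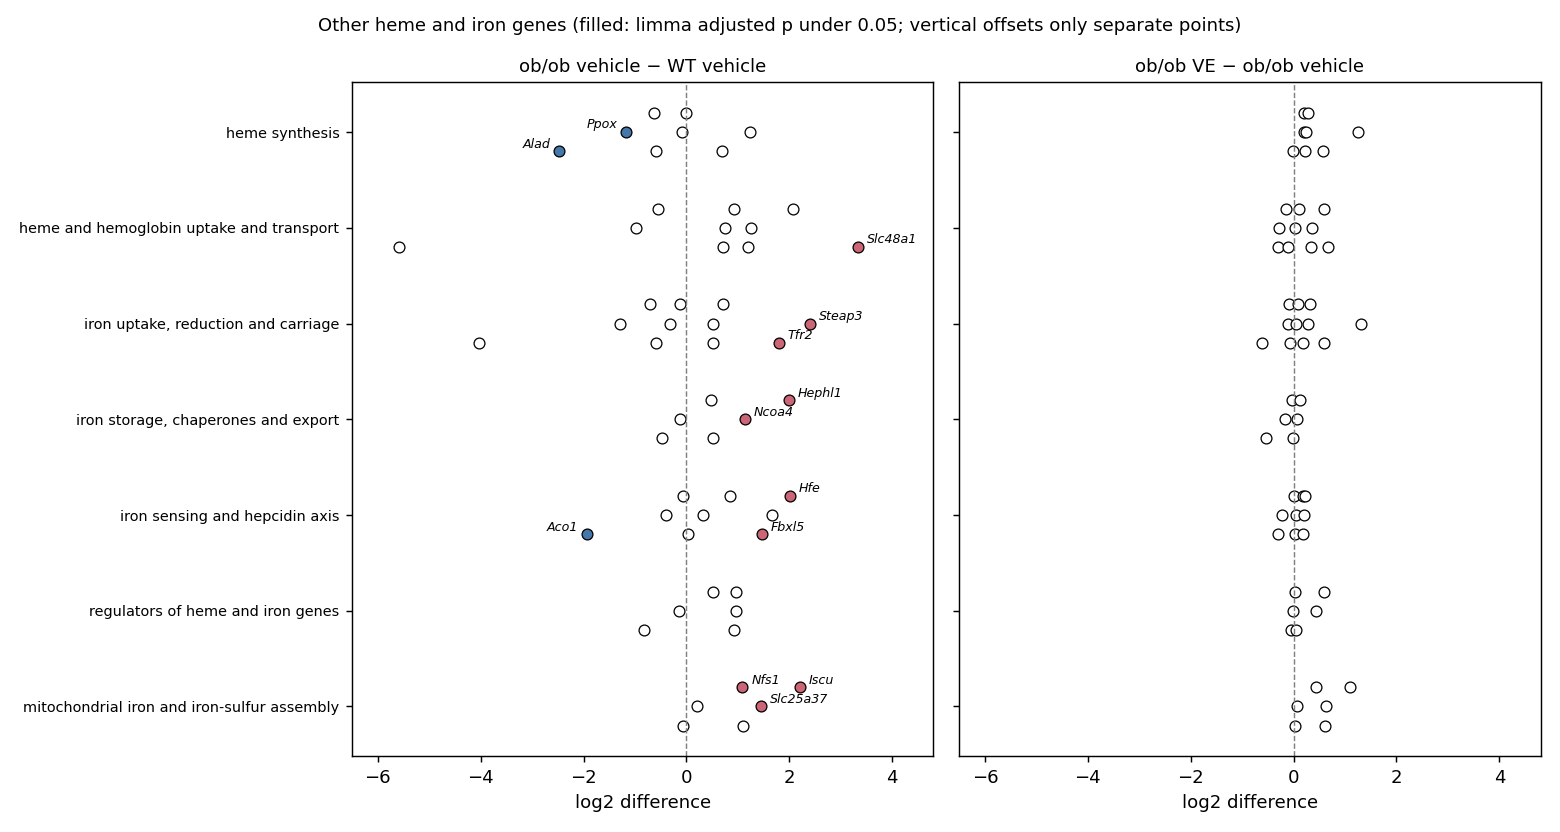
Log2 differences of the 56 measured genes of heme and iron metabolism by class, with ob/ob vehicle minus wild type on the left and ob/ob VE minus ob/ob vehicle on the right. Filled points passed limma at an adjusted p under 0.05: 13 on the left and none on the right.

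For 3 of the genes, the most alike array profiles were sought among 18412 named genes outside the lists, each gene centred on its own mean, by the root mean square difference over the 9 arrays. For Hmox1 they were Il1rn (0.400 log2 units), Pirb (0.434), Itgb2 (0.439), Anpep (0.455) and Adam8 (0.461), with differences between the vehicle groups of 6.20 to 7.13. For Slc40a1 they were Tnfrsf26 (0.463), Tmem104 (0.527), Ceacam1 (0.602), Dcstamp (0.603) and Pstpip2 (0.612). For Cp they were Rbm5 (0.432), Pik3r1 (0.464), Cbx5 (0.482), Ift81 (0.491) and Dsg2 (0.496). With 9 arrays in 3 groups, these likenesses describe mainly which groups were high.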

How the data were processed

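White adipose tissue RNA of 9 mice was read on Clariom S arrays. The deposited values are log2 levels per transcript cluster that the authors obtained by signal space transformation RMA in Transcriptome Analysis Console 4.0.2, per the labels' design text; the genome build was not given in the sources used here. Nothing was rescaled. Of 22206 clusters, 19572 had 1 gene symbol in the platform annotation, 0 had several and 2634 had none. Groups came from the sample labels. limma 3.58.1 in R 4.3.3 fitted the 3 group means over all 9 arrays, two-sided, with Benjamini-Hochberg adjustment over 19572 clusters for each comparison. An exact permutation test of 3 against 3 cannot go under p = 0.1. Array number limits the precision.

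In simulated data of 19572 clusters, 50 were changed at each of 1.5-, 2-, 4- and 16-fold. For ob/ob vehicle against wild type, the fit recovered 6 of 50 changes of 2-fold and 47 of 50 of 4-fold. For VE against vehicle it recovered 3 of 50 and 41 of 50. So few changed clusters make the adjusted p stricter than where many clusters change, as against wild type. The members and lists were chosen with earlier results of these data known. Named were all 9 members, every listed gene called, and the 2 highest and 2 lowest moderated t per comparison. The 5 most alike genes of Hmox1, Slc40a1 and Cp were also named. Abcg2, Ireb2, Nfe2l2, Bach1, Keap1, Hp, Hamp and single markers were added after their values were seen. Alternatives covered prior, block, weights, scaling, filter, threshold, genomic span and single arrays; the span trend and the omission of wild type arrays 1 and 2 were chosen after seeing the data. Same-numbered arrays of different groups did not deviate together (correlations -0.0635 to 0.181).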

Additional observations from a re-analysis of the deposited data

How the results depend on the processing

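Hmox1, Blvra, Slc11a1 and Ftl1 kept their direction and call against wild type, with vehicle and with VE, under all 22 alternatives. With vehicle, Slc40a1 kept its call in 14 of the 22 and Cp passed in 10. Those of Cp include the study's threshold and the adjusted p under 0.1, where only the cutoff changed (limma adjusted p = 0.0511). The count of the 9 genes called was 6 with vehicle, 0 for VE against vehicle and 5 for VE against wild type; leaving out single arrays gave 5 to 7, 0 and 5 to 6. For the 56 other genes the counts were 13, 0 and 16, and 8 to 21, 0 and 14 to 22 with single arrays left out. At the study's threshold (unadjusted p under 0.05 and fold over 1.1, without its further filters) VE against vehicle gave 2 of the 9 and 4 of the 56. The share of all clusters was 4.56%. Against wild type the 56 gave 29 with vehicle and 31 with VE, against 28.4% and 33.9% of all clusters. At an adjusted p under 0.1 the 56 gave 21 and 26, where 3957 and 5526 of 19572 clusters were called. With replicate number as a block, which the labels do not tie to a litter or batch, Cp passed with vehicle (-2.16, limma adjusted p = 0.0125). Only 7 of 18 comparisons of an array with another group's arrays were closest for its own number.

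Sign changes occurred only in differences that were not called. With vehicle, Fth1 was -0.0533 without wild type arrays 1 and 2, and Tfrc ran from -0.268 to 0.592 without single arrays. For VE against vehicle, Tfrc was -0.0988 with array weights and -0.0717 after quantile normalization, and Slc11a1 was -0.000556 after quantile normalization. Without single arrays, Tfrc ran from -0.375 to 0.405, Slc11a1 from -0.0817 to 0.273, Cp from -0.317 to 1.03, Blvra from -0.0467 to 0.373, Hmox1 from -0.79 to 0.20 and Slc40a1 from -1.15 to 0.0733. For VE against wild type, Tfrc was -0.0365 after quantile normalization and ran from -0.235 to 0.585 without single arrays. The cause was not tested. Taking the mean over clusters of a gene changed nothing, since each of the 9 has 1 cluster. In the simulated data, with few clusters changed and 3 arrays a group, most changes of 2-fold were not recovered. Against wild type, where many clusters were called, some differences near 2-fold passed and others did not.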

Other observations

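Within the groups, 4 of the 36 pairs of the 9 genes had the same highest array in all 3 groups: Hmox1 with Slc40a1, and Blvrb, Fth1 and Ftl1 with one another. This was looked for after the values were seen and is a description of 9 arrays. How many such pairs would arise by chance was not worked out. The highest Fth1 array in ob/ob VE led by little (19.46 against 19.45). Haptoglobin (Hp), the plasma carrier of free hemoglobin, read 17.57, 18.09 and 19.24 in wild type and 19.40 to 19.65 in ob/ob vehicle, a log2 difference of 1.203 that did not pass (limma adjusted p = 0.0706). Hamp, which encodes the iron hormone hepcidin, read 10.59, 9.14 and 11.18 in wild type and 11.10, 12.71 and 12.10 in ob/ob vehicle. It read 10.52, 12.34 and 13.61 in ob/ob VE, with overlap between all groups. Within each group the arrays stood in the same order for Hamp as for the hepatocyte marker median. That median was 12.72, 7.145 and 15.15 in wild type, 12.29, 13.435 and 13.275 in ob/ob vehicle and 12.28, 13.94 and 15.38 in ob/ob VE. The part of hepatocyte RNA in the Hamp values was not tested.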
